A study of Drosophila melanogaster with 13 samples.

Results

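The cell adhesion and axon guidance genes described here are 52 of the 17737 genes in a table of read counts from fruit fly brain neurons. They comprise 38 genes chosen by name, and the 14 genes whose symbol begins with beat-. Genes of the Dpr and DIP families were left out of the set. The neurons carried GFP under either of 2 Gal4 drivers, TRH-Gal4, named for tryptophan hydroxylase, and sNPFR-Gal4, named for the short neuropeptide F receptor. Cells were picked singly by mouth aspiration, TRH-Gal4 cells from protease-digested and dissociated brains, sNPFR-Gal4 cells from brains that were pinned. The TRH-Gal4 group held 4 pools, numbered 40, 45, 60 and 57 in their labels. The sNPFR-Gal4 samples were 1 pool, numbered 16, and 8 single cells, numbered 1 to 7 and 10. Pools held 15 to 60 cells and were amplified with 12 PCR cycles, single cells with 17. Whether the number in a pool's name is its number of cells is not stated; if it is, pool 16 held fewer cells than any TRH pool. The sources used here do not give the flies' age, sex or further genotype, nor the GFP transgene. A driver marks the cells in which its promoter fragment is active, which need not be all or only the cells that express the gene it is named for. Handling and driver cannot be told apart.

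Adhesion and guidance proteins sit on the surface of growing and mature neurons and decide which neighbours a neurite follows, avoids or connects to. Homophilic molecules such as fasciclins, cadherins and teneurins hold like surfaces together, while secreted cues such as Slit and the netrins steer axons through receptors of the Robo, Frazzled and Unc-5 types. Many of these genes stay on in the adult brain, where neuron types differ in the combination they express. In the libraries each level is the gene's reads scaled to the library's total (CPM, counts per M reads), and comparisons between genes use CPM per kilobase of exon.

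The TRH pools held nearly the whole set, and the sNPFR libraries held a smaller and more variable part of it. With 10 CPM as the level for calling a gene present, 45, 47, 49 and 48 of the 52 genes were present in TRH pools 40, 45, 60 and 57. Pool 16, the sNPFR pool, had 25 present, and the single cells had 9 to 22. All genes followed the same order: 5119 to 5686 genes reached 10 CPM in a TRH pool, 2798 in pool 16 and 784 to 1896 in a cell. The lower number of adhesion genes in sNPFR libraries came with a lower number of genes of every kind. The TRH pools had 8.72 to 15.6 M reads each, pool 16 had 56.1 M and the cells 3.38 to 67.96 M, so the deepest libraries were not those with the most genes. With each cell thinned to the reads of the shallowest, the cells had 9 to 22 of the set present. A threshold in CPM scales with depth, so thinning could hardly change this count, and the pools were not thinned. The part of the number of cells per pool in these counts was not tested. In bulk pools, fewer cells that express a gene and less RNA of it per cell cannot be told apart.

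**Figure D1:**
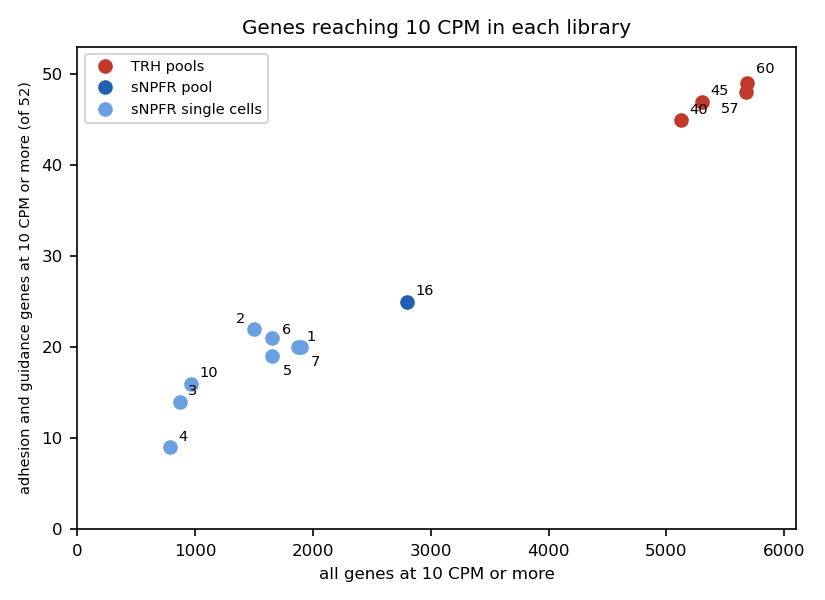
Number of the 52 adhesion and guidance genes at 10 CPM or more (vertical axis) against the number of all genes at that level (horizontal axis), 1 point per library, labelled with the library's number. The 4 TRH pools sit at 45 to 49 genes, the sNPFR pool at 25 and the 8 single cells between 9 and 22.

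**Figure D2:**
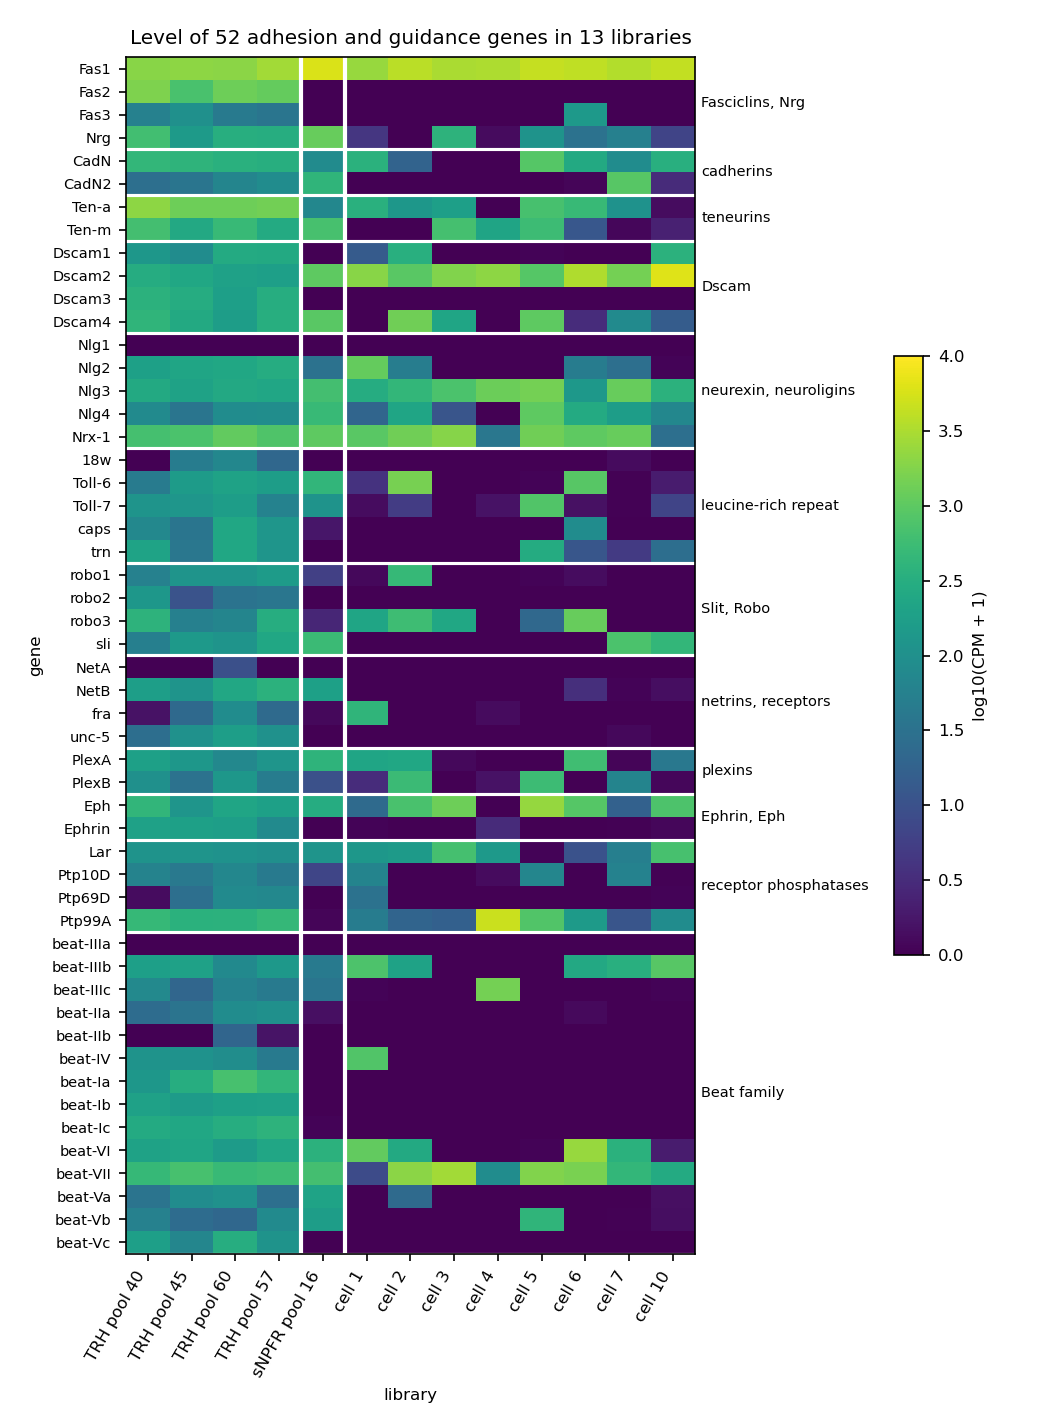
Level of each of the 52 genes as log10(CPM + 1), with genes in rows grouped by role and the 13 libraries in columns. Rows such as Fas2, Dscam3 and beat-Ia are bright in the 4 TRH pools and dark in all 9 sNPFR libraries, while Fas1 and Dscam2 are bright in every library.

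Driver genes and cell type markers were read against the labels. Trh averaged 13868 ± 2432 CPM (SD, n = 4) over the TRH pools, and all sNPFR libraries together had 2 reads of it. The sNPF-R gene ranged from 21.9 to 145.6 CPM across the TRH pools, 139.7 CPM in pool 16 and 0 to 2406 CPM in the cells, 5 of which reached 10 CPM. All 7 general neuronal markers had reads in each group, with a summed level of 9290 to 10825 CPM across the TRH pools, 7824 CPM in pool 16 and 10680 to 31207 CPM in the cells. Taken singly, elav stood at 191.6 to 370.9 CPM across the TRH pools but at 1.37 CPM in pool 16. It reached 10 CPM in 4 of 8 cells, Syn in 6 and brp in 7, while nSyb, Syt1, para and fne did so in all 8. Whether such genes were missed or not expressed in a library was not tested, here or for the genes below. Of 11 glia markers, 6 had 0 reads in pool 16, yet their sum was 1589 CPM there, from Eaat1, alrm and Gs2, against 137.8 to 575.1 CPM across the TRH pools and 0 to 129.8 CPM in the cells. The pan-glial gene repo was at 0 reads in that pool. Of 6 hemocyte markers, Pxn alone reached 10 CPM, at 161.8 to 405.6 CPM across the TRH pools, and all 6 had 0 reads in pool 16. Summed levels of 5 fat body and basement membrane, 7 muscle and 4 tracheal markers reached at most 42.5, 20.5 and 10.9 CPM in a TRH pool, and in a cell at most 0.0521, 199.0 and 0.26 CPM. The 10 photoreceptor markers summed to 261.6 to 447.2 CPM across the TRH pools, 1023 CPM in pool 16 and 0 to 3348 CPM in the cells. Nearly all of that was norpA; Arr1 and Arr2 reached 13.5 and 30.0 CPM in a cell, and the opsin genes had 0 reads in sNPFR libraries. The 6 Kenyon cell markers summed to 730.4 to 1586 CPM across the TRH pools, 1420 CPM in pool 16 and 464.3 to 4933 CPM in the cells, with ey, toy and prt at 0 reads in every sNPFR library. The part of other cell types in the differences below was not tested.

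To compare the groups, the 4 TRH pools were set against 2 sNPFR units, namely pool 16 and the reads of the 8 cells added together, because the labels name no animals and cells are not replicates. Of the 52 genes, 48 passed the filter on low counts; Nlg1, NetA, beat-IIIa and beat-IIb did not. By the quasi-likelihood test of edgeR, adjusted by the Benjamini-Hochberg method over all 7426 genes tested, 10 of the 48 were higher across the TRH pools and 5 were higher in the sNPFR units. Over all genes tested, 10.6% were higher in TRH and 3.03% higher in sNPFR. The 10 were Fas2, Ten-a, Dscam3, robo2, unc-5, Ephrin, beat-Ia, beat-Ib, beat-Ic and beat-Vc. The 5 were Fas1, CadN2, Dscam2, Nlg3 and Nlg4. Every TRH pool lay above both sNPFR units for 20 of the 48, against 27.3% of all genes tested, and below both for 7, against 8.11%. The median log2 fold change, TRH minus sNPFR, was 0.66 over the 48 and 0.67 over all genes tested. The fit multiplied library totals by scaling factors (TMM). These were 1.05 to 1.20 for the TRH pools, 0.918 for pool 16 and 0.679 for the summed cells. CPM lack these factors, so fitted fold changes and ratios of CPM differ. Both sNPFR units had 0 reads for 6 of the 48 (12.5%) and for 22.9% of all genes tested. The p-values reflect the spread among these libraries alone, which may be technical.

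**Figure D3:**
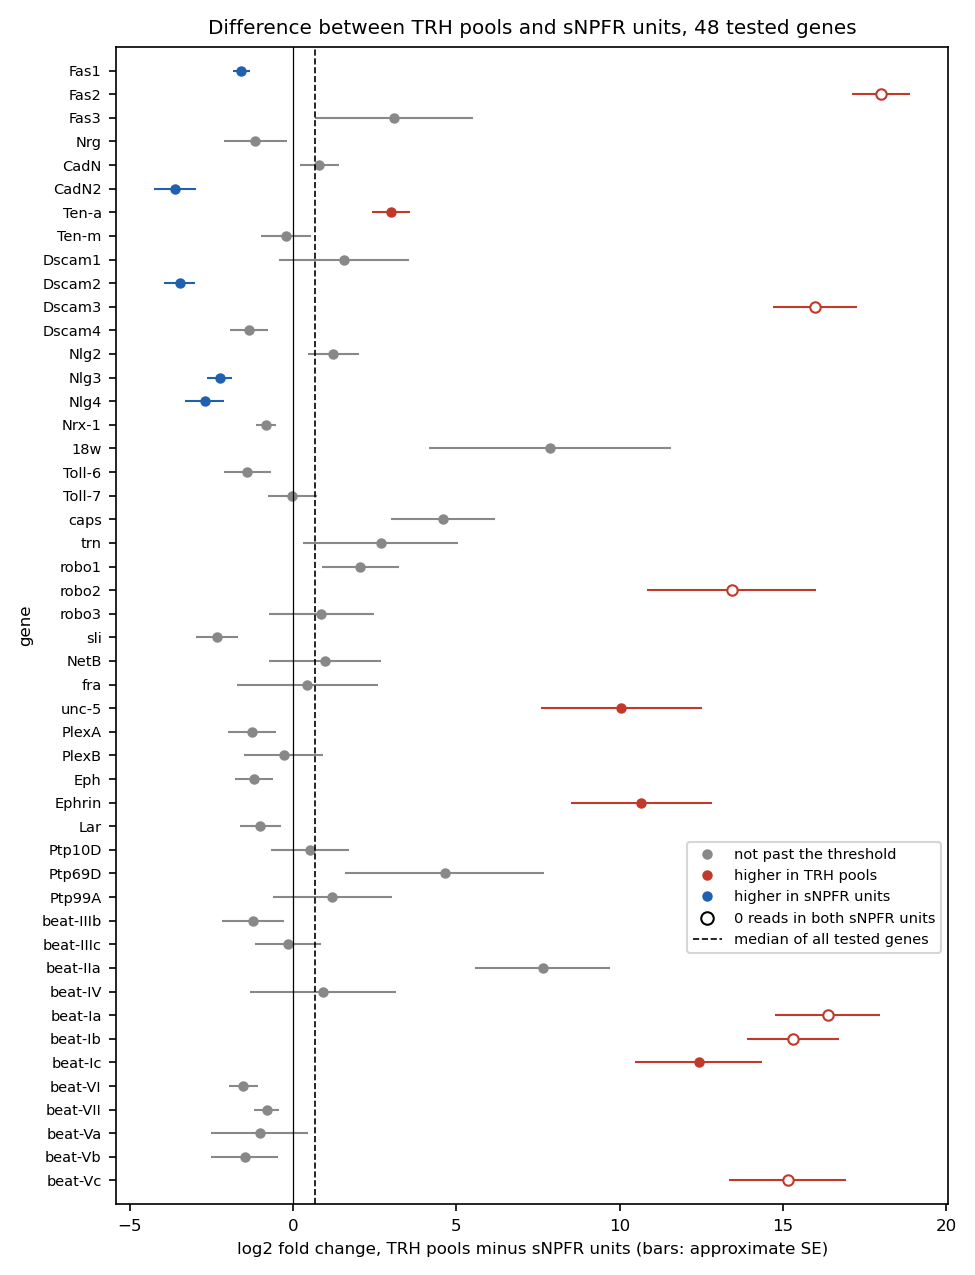
Fitted log2 fold change (horizontal axis, TRH pools minus sNPFR units) with its approximate standard error for the 48 tested genes; red points passed as higher in TRH, blue points as higher in sNPFR. Open points mark the 6 genes with 0 reads in both sNPFR units, whose fitted value depends on the prior count of the fit, and the dashed line is the median of all genes tested, 0.67.

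The number of calls depended on the TRH pools. Of the 15, 12 were kept without pool 40, 1 without pool 45, 2 without pool 60 and 1 without pool 57, and Fas2 was kept each time. Over all genes the calls numbered 1009 with every pool and 989, 30, 39 and 16 in those 4 settings. The number of the set with an unadjusted p under 0.05 was 20 with every pool and 21, 19, 19 and 18 in the same settings.

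Among the fasciclins, Fas2 and Fas1 were called in opposite directions. Fas2, an immunoglobulin-type molecule that bundles axons through homophilic contact (FBgn0000635, BDGP6 chromosome X, 4132887 to 4206093, minus strand), stood at 1680, 719.2, 1317 and 1119 CPM in TRH pools 40, 45, 60 and 57. It had 0 reads in pool 16 and in every cell. A floor of 3 reads in pool 16, the sNPFR pool, is 0.0535 CPM, so the TRH mean of 1209 ± 401 CPM was at least 22612-fold higher (adjusted p = 0.0027). Such floors cover counting error only, since PCR copies count as reads.

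Fas1, a membrane-anchored adhesion protein with fasciclin domains (FBgn0285925, chromosome 3R, 16625238 to 16639771, plus strand), had the highest mean level of the set in each group, in CPM and per kilobase of exon alike. It stood at 1933, 2125, 2041 and 2782 CPM across the TRH pools, 5973 CPM in pool 16 and 2437, 3796, 3067, 3220, 4400, 4070, 3466 and 4369 CPM in cells 1 to 7 and 10. The TRH pools lay below both sNPFR units, and cell 1 lay below TRH pool 57. The log2 fold change was -1.58 ± 0.25 (adjusted p = 0.0204). Per kilobase of exon Fas1 stood at 455.8 CPM across the TRH pools, ahead of Fas2 at 165.5.

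Fas3 and Nrg did not pass. Fas3, another homophilic adhesion protein, ranged from 35.3 to 99.6 CPM across the TRH pools, had 0 reads in pool 16 and stood at 137.4 CPM in cell 6, the only cell with reads (adjusted p = 0.405). Nrg, the fly L1-type molecule, ranged from 151.7 to 621.1 CPM across the TRH pools, stood at 1175 CPM in pool 16 and reached 10 CPM in 4 of 8 cells, at most 390.0 CPM. The sNPFR pool lay above every other library for Nrg.

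The 2 N-cadherin genes, which lie side by side on chromosome 2L, differed in which libraries held them. CadN, the classical neuronal cadherin (17647053 to 17778340), stood at 442.5, 405.1, 344.4 and 318.5 CPM across the TRH pools, 83.0 CPM in pool 16 and 0 to 874.8 CPM in the cells, 6 of which reached 10 CPM. CadN2, its shorter relative (17786971 to 17875247), stood at 27.5, 34.8, 64.3 and 88.0 CPM across the TRH pools and 418.6 CPM in pool 16. In the cells CadN2 stood at 919.1 CPM in cell 7, at 2.14 CPM in cell 10 and at 0.127 CPM in cell 6, with 0 reads elsewhere.

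CadN did not pass (log2 fold change 0.80 ± 0.59, adjusted p = 0.379), and CadN2 was called as higher in sNPFR (-3.60 ± 0.65, adjusted p = 0.0222). Cell 7 gave 99.9% of the cells' CadN2 reads and 52.7% of all their reads, and the summed level was 484.3 CPM with it and 0.687 CPM without it. The call was lost without cell 7 (adjusted p = 0.332) and with all cells thinned to equal depth (0.0996). Of the 2 genes' CPM per kilobase, CadN made up 66.8% to 89.9% across the TRH pools and 9.92% in pool 16. It made up 98.8% or more in the 5 other cells with either gene at 10 CPM and 4.99% in cell 7.

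Teneurins are large homophilic and heterophilic surface proteins that match synaptic partners in the fly olfactory system. Ten-a (chromosome X, 12043698 to 12335214, plus strand) stood at 2061, 1319, 1296 and 1409 CPM across the TRH pools and 69.9 CPM in pool 16. In cells 1 to 7 and 10 Ten-a stood at 346.3, 132.2, 180.3, 0, 681.8, 496.0, 108.2 and 0.365 CPM. No sNPFR library reached the lowest TRH pool, and Ten-a was called as higher in TRH, by a log2 fold change of 3.01 ± 0.58 (adjusted p = 0.0237). Ten-m ranged from 262.1 to 642.4 CPM across the TRH pools, stood at 687.9 CPM in pool 16 and reached 10 CPM in 4 cells (adjusted p = 0.876). Ten-a made up 66.5% to 79.9% of the pair's CPM per kilobase across the TRH pools and 7.25% in pool 16. Among 7 cells with either at 10 CPM, it made up 97.2% or more in 4, 49.1% in cell 5, 17.4% in cell 3 and 0% in cell 4.

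The 4 Dscam genes, which encode immunoglobulin proteins for self-avoidance and repulsion between like neurites, were all present in every TRH pool. In the sNPFR libraries Dscam2 was the one present throughout. Dscam2 (FBgn0265296, chromosome 3L, 7159199 to 7189931, minus strand) stood at 296.6, 238.3, 191.9 and 180.2 CPM across the TRH pools and 1016 CPM in pool 16. In cells 1 to 7 and 10 Dscam2 stood at 1937, 941.7, 1736, 2096, 866.1, 3281, 1452 and 6291 CPM. Each of the 9 sNPFR libraries lay above all 4 TRH pools.

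Dscam2 was called as higher in sNPFR, by a log2 fold change of -3.47 ± 0.47 (adjusted p = 0.0158). Relative to the TRH mean of 226.8 ± 52.9 CPM it was 4.48-fold higher in pool 16 and 10.01-fold higher in the summed cells. These ratios of CPM lack the scaling factors of the fit. Dscam2 was kept as a call whichever single cell was left out.

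Dscam3 (chromosome 3R, 17473935 to 17505667, minus strand) showed the opposite arrangement. It stood at 373.5, 301.7, 180.3 and 313.7 CPM across the TRH pools, with 0 reads in all 9 sNPFR libraries, and the TRH mean was at least 5468-fold above the floor of pool 16 (adjusted p = 0.00552). Dscam4 ranged from 169.7 to 408.0 CPM across the TRH pools, stood at 932.4 CPM in pool 16 and reached 10 CPM in 5 cells, with 1352 CPM in cell 2 the highest (adjusted p = 0.156). Dscam1, known for its very many alternative isoforms, which gene counts do not resolve, ranged from 87.7 to 278.7 CPM across the TRH pools, had 2 reads in pool 16 and reached 10 CPM in cells 1, 2 and 10 (adjusted p = 0.624). Of the family's CPM per kilobase, Dscam2 made up 13.8% to 21.9% across the TRH pools, 40.1% in pool 16 and 28.5% to 100% in the cells. Exon length here joins all annotated exons of a gene, 26.5 kb for Dscam1. Its alternative exons therefore lower the share of Dscam1 and raise those of the others.

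**Figure D4:**
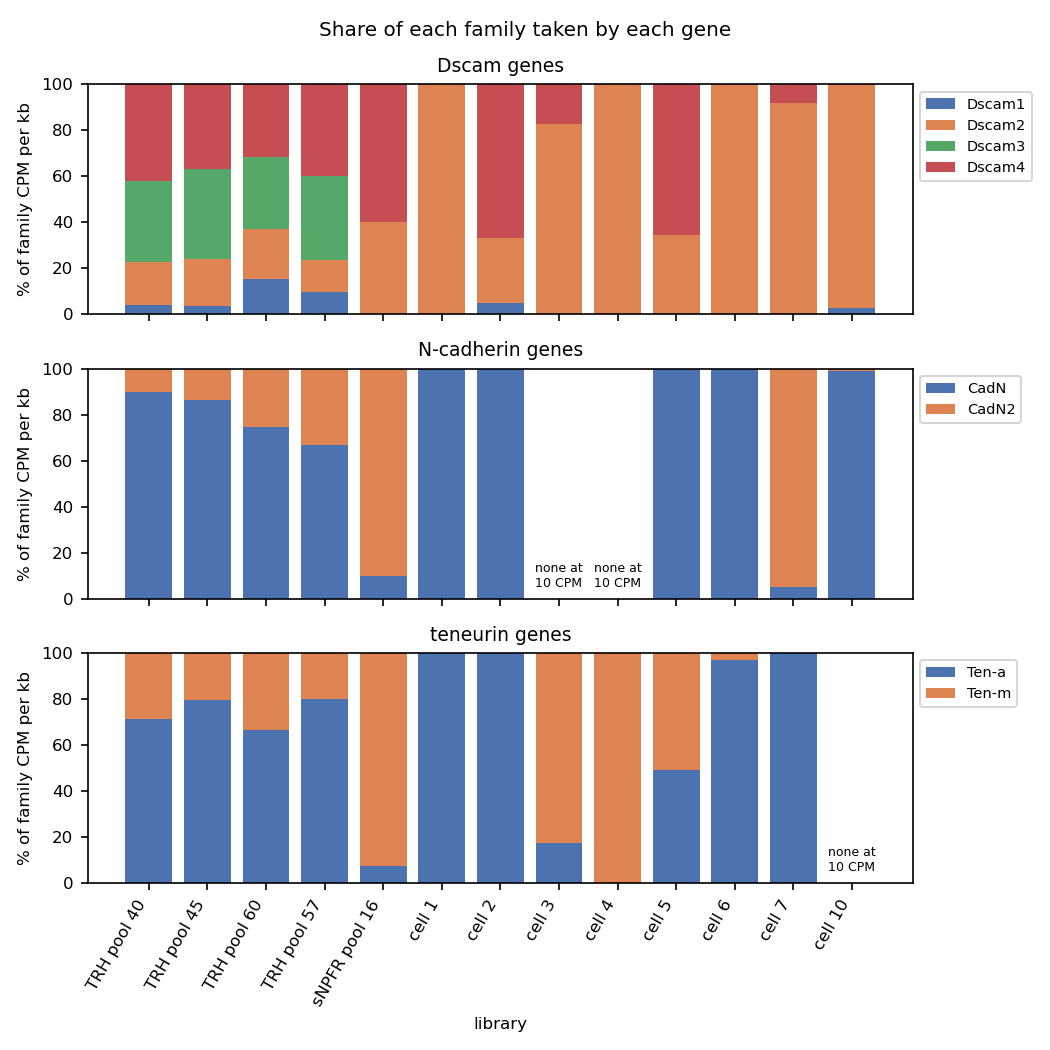
Share of each family's CPM per kilobase of exon taken by each gene (stacked bars, percent) in the 13 libraries, for the Dscam, N-cadherin and teneurin genes. The 4 TRH pools hold every family member, though shares vary, CadN2 taking 10.1% to 33.2% and Dscam1 3.65% to 15.5%. The exon length of Dscam1 joins all its alternative exons, which lowers its share. Most single cells are taken up by 1 gene of a family, but a pool mixes 15 to 60 cells. Libraries with no member at 10 CPM are left blank.

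Neurexin and neuroligins are presynaptic and postsynaptic partners that bind across the synaptic cleft. Nrx-1 stood at 668.4, 732.7, 1076 and 780.7 CPM across the TRH pools and 1020 CPM in pool 16. In cells 1 to 7 and 10 it stood at 963.0, 1361, 1863, 37.6, 1340, 1008, 1167 and 28.0 CPM, so cells 4 and 10 were low and the groups overlapped (log2 fold change -0.83 ± 0.31, adjusted p = 0.122). With singleton pairing in the scaling, Nrx-1 passed as higher in sNPFR (-1.15, adjusted p = 0.0384).

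Of the neuroligins, Nlg3 and Nlg4 were called as higher in sNPFR, Nlg2 did not pass and Nlg1 had 0 reads in all 13 libraries. Nlg3 (chromosome 3R, 7570281 to 7639434, minus strand) stood at 268.7, 198.7, 259.4 and 230.5 CPM across the TRH pools, 627.2 CPM in pool 16 and 135.1 to 1468 CPM in the cells, with cell 6 alone below the TRH pools. Its log2 fold change was -2.25 ± 0.38 (adjusted p = 0.0216). Nlg4 (chromosome 3R, 20204809 to 20245473, plus strand) stood at 80.2, 35.4, 86.1 and 91.4 CPM across the TRH pools and 494.8 CPM in pool 16. In cells 1 to 7 and 10 it stood at 19.5, 223.7, 10.5, 0, 1015, 280.3, 169.7 and 69.7 CPM, a range that spans the TRH pools.

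The log2 fold change of Nlg4 was -2.70 ± 0.60 (adjusted p = 0.0314), and scaling by library totals ended the call (adjusted p = 0.0691), as did keeping all genes with a read or leaving out any 1 TRH pool (adjusted p from 0.0606 to 0.0849). Nlg2 ranged from 185.3 to 296.3 CPM across the TRH pools, stood at 30.9 CPM in pool 16 and reached 1117 CPM in cell 1, which held 78.9% of the cells' reads of it. In the 8 cells, Nrx-1 and Nlg3 were both present in 8, Nrx-1 and Nlg4 in 7 and Nrx-1 and Nlg2 in 4. By limma-voom none of the 5 genes higher in sNPFR passed (adjusted p from 0.18 to 0.965), and by limma on the deposited normalized values Dscam2 alone did.

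The leucine-rich repeat genes caps, trn, Toll-6, Toll-7 and 18w encode surface proteins used in target selection and tissue patterning, and 0 of 5 passed. Toll-6 stood at 45.6, 153.5, 202.5 and 170.3 CPM across the TRH pools and 424.5 CPM in pool 16. In the cells Toll-6 was split, at 1510 CPM in cell 2 and 920.7 CPM in cell 6 and at most 2.89 CPM in the others (adjusted p = 0.2). The gene trn, for the surface protein Tartan, stood at 208.3, 37.4, 237.0 and 122.0 CPM across the TRH pools, had 0 reads in pool 16 and reached 10 CPM in cells 5, 6 and 10, at 292.3, 10.6 and 26.9 CPM (adjusted p = 0.466). Its relative caps ranged from 35.0 to 243.6 CPM across the TRH pools, with 0.731 CPM in pool 16 and 87.5 CPM in cell 6, the only cell with reads. Toll-7 reached 10 CPM in cell 5 alone, at 816.0 CPM, and 18w in no cell.

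Slit is a secreted repellent, and Robo proteins are its receptors. The sli gene ranged from 53.2 to 239.3 CPM across the TRH pools and stood at 533.0 CPM in pool 16, 743.1 CPM in cell 7 and 451.6 CPM in cell 10, with 0 reads in the other 6 cells. It did not pass (log2 fold change -2.34 ± 0.64, adjusted p = 0.0578). It did pass with singleton pairing, with DESeq2, with either sNPFR unit alone, or without cell 1, 2, 5 or 6. Cell 7 gave 85.3% of the cells' sli reads. The summed level was 458.5 CPM with cell 7 and 141.9 CPM without it, beside a TRH mean of 136.8 CPM.

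Of the receptors, robo2 was called as higher in TRH. The gene (chromosome 2L, 1380086 to 1420453, minus strand) stood at 128.8, 9.48, 32.4 and 36.0 CPM in TRH pools 40, 45, 60 and 57, with 0 reads in all 9 sNPFR libraries (adjusted p = 0.0272). Pool 40 was high and pool 45 under 10 CPM. Of the exon bases of robo2, 20.0% are shared with a long noncoding gene on the same strand and 22.9% with an antisense gene, and strand use in counting is not stated, so its count is uncertain. The robo3 gene stood at 378.9, 54.4, 66.1 and 308.8 CPM across the TRH pools, 1.69 CPM in pool 16, and 220.6, 575.9, 240.7, 21.4 and 1164 CPM in cells 1, 2, 3, 5 and 6 (adjusted p = 0.75). The robo1 gene ranged from 57.1 to 153.1 CPM across the TRH pools, stood at 4.70 CPM in pool 16 and reached 478.7 CPM in cell 2 alone. No cell held sli together with a Robo gene at 10 CPM, nor did pool 16, while every TRH pool did. A pool can hold both through different cells.

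Netrins are secreted guidance cues that attract through Frazzled and repel through Unc-5. NetB stood at 172.4, 115.7, 252.1 and 368.8 CPM across the TRH pools and 188.0 CPM in pool 16, but at most at 2.42 CPM in a cell (adjusted p = 0.729). It was the one gene of the set present in pool 16 and in no cell. With the summed cells as the only sNPFR unit NetB passed as higher in TRH (adjusted p = 0.00498). The 11 glia markers together were also highest in pool 16, at 1589 CPM against at most 129.8 CPM in a cell, but not gene by gene. Eaat1 and alrm stood at 1105 and 323.2 CPM there and at most at 2.08 and 0.729 CPM in a cell, whereas nrv2 had 0 reads there and up to 129.7 CPM in a cell, and repo had 0 reads. Their part in the NetB level was not tested. NetA, which lies beside NetB on chromosome X, stood at 8.36 CPM in TRH pool 60 and at 0 reads in the other 12 libraries.

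The receptor gene unc-5 (chromosome 2R, 15340472 to 15368300, plus strand) stood at 26.5, 105.0, 173.2 and 103.9 CPM across the TRH pools, with 0 reads in pool 16 and 14 reads in all cells, each of them in cell 7 (adjusted p = 0.0397). The groups did not overlap. The gene fra, for Frazzled, stood at 0.573, 21.9, 85.9 and 23.3 CPM across the TRH pools, 0.214 CPM in pool 16 and 411.9 CPM in cell 1, with at most 0.296 CPM in the other cells (adjusted p = 0.91). The call of unc-5 was lost whichever TRH pool was left out (adjusted p from 0.0526 to 0.101).

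Plexins are the receptors of semaphorins, and Eph is the fly's single receptor for its single Ephrin. PlexA stood at 183.7, 130.2, 72.3 and 119.3 CPM across the TRH pools, 394.4 CPM in pool 16, and 221.6, 242.1, 589.7 and 39.6 CPM in cells 1, 2, 6 and 10 (adjusted p = 0.261). PlexB stood at 102.5, 31.4, 130.5 and 47.0 CPM across the TRH pools, 8.91 CPM in pool 16, and 525.6, 541.8 and 63.6 CPM in cells 2, 5 and 7 (adjusted p = 0.898). Cell 2 held both plexins and cells 3 and 4 neither.

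Eph and Ephrin both lie on chromosome 4 and differed in distribution. Eph (610684 to 622470, plus strand) stood at 428.7, 120.5, 220.8 and 189.9 CPM across the TRH pools, 293.7 CPM in pool 16, and 22.9, 708.7, 1313, 0, 2367, 878.0, 16.2 and 753.4 CPM in cells 1 to 7 and 10 (adjusted p = 0.182). Ephrin (571755 to 580122, plus strand) stood at 196.0, 185.3, 172.4 and 81.3 CPM across the TRH pools, with 0 reads in pool 16 and 14 reads in all cells. Ephrin was called as higher in TRH (adjusted p = 0.0255), and that call was lost whichever TRH pool was left out (adjusted p from 0.0503 to 0.0825). Thus 7 of 8 cells and pool 16 held the receptor at 10 CPM without the ligand, while every TRH pool held both. As with Slit, a pool can hold both through different cells.

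Receptor tyrosine phosphatases of axons, Lar, Ptp10D, Ptp69D and Ptp99A, gave 0 calls of 4. Ptp99A stood at 478.6, 360.7, 372.8 and 465.7 CPM across the TRH pools and had 8 reads, or 0.143 CPM, in pool 16. In cells 1 to 7 and 10 Ptp99A stood at 47.6, 18.3, 15.96, 4841, 827.2, 150.9, 10.4 and 88.0 CPM. It was thus present in all 8 cells and nearly without reads in the pool of the same driver (adjusted p = 0.684). Of its exon bases 17.2% are shared with CG2321 on the other strand, which stood at 45.9 CPM in pool 16, and reads in that stretch cannot be told apart. Lar had the narrowest spread of the set among the TRH pools, 95.7 to 116.8 CPM (coefficient of variation 8.25%), with 115.2 CPM in pool 16 and 0.108 to 674.1 CPM in the cells. In the annotation 83.6% of its exon bases are shared with CG46244, which has 0 reads in every library, so the count of Lar is uncertain. Ptp10D reached 10 CPM in cells 1, 5 and 7 and Ptp69D in cell 1 alone.

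The Beat family, named for beaten path, encodes immunoglobulin proteins that include the receptor of the guidance molecule Sidestep. Of its 14 genes 12 were tested, of which 4 were called as higher in TRH and 0 as higher in sNPFR, against 10.6% and 3.03% of all genes tested. Of the 4 called genes, 3 lie in 1 stretch of chromosome 2L, beat-Ib (15905134 to 15962435, minus strand), beat-Ic (16000291 to 16041703, plus strand) and beat-Ia (16049965 to 16081684, plus strand). The gene beat-Ia, the founding member, stood at 127.9, 304.6, 677.4 and 424.5 CPM in TRH pools 40, 45, 60 and 57 with 0 reads in all sNPFR libraries (adjusted p = 0.0097). Its level in pool 60 was 5.3-fold that in pool 40.

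Its neighbour beat-Ib stood at 193.5, 156.2, 185.4 and 195.5 CPM across the TRH pools, also with 0 reads in all sNPFR libraries (adjusted p = 0.00803). The third gene of the stretch, beat-Ic, stood at 280.2, 238.9, 307.9 and 389.8 CPM across the TRH pools, with 5 reads in pool 16 and 0 in the cells (adjusted p = 0.0204). In contrast to beat-Ia, both varied by less than 2-fold between the TRH pools. The TRH means of beat-Ia and beat-Ib were at least 7175-fold and 3416-fold above the floor of pool 16.

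The fourth, beat-Vc (chromosome 3R, 12746036 to 12783216, minus strand), stood at 181.9, 68.3, 313.7 and 111.4 CPM across the TRH pools with 0 reads in all sNPFR libraries (adjusted p = 0.0158). Its neighbours did not pass. The sNPFR pool held beat-Va and beat-Vb at 207.6 and 168.0 CPM, above every TRH pool, whose ranges were 27.9 to 104.2 and 20.4 to 80.8 CPM. Among the cells beat-Va reached 10 CPM in cell 2 alone and beat-Vb in cell 5 alone, at 22.9 and 419.9 CPM.

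The gene beat-VII was the most widespread of the family. It stood at 472.9, 691.5, 499.4 and 545.3 CPM across the TRH pools and 625.4 CPM in pool 16. In cells 1 to 7 and 10 it stood at 7.34, 2028, 2778, 86.7, 1731, 1582, 437.0 and 281.6 CPM (log2 fold change -0.81 ± 0.37, adjusted p = 0.174). The gene beat-VI was present in 4 cells, at most 2452 CPM in cell 6, and beat-IIIb in 5, while beat-IIIc and beat-IV were each present in 1, at 1472 CPM in cell 4 and 815.9 CPM in cell 1. Of these, beat-VI passed as higher in sNPFR in 4 of 23 alternative settings and beat-IIIb in 1. By contrast beat-IV passed as higher in TRH in 2. The gene beat-IIa ranged from 24.5 to 99.7 CPM across the TRH pools with 26 reads in pool 16 (adjusted p = 0.0553), and it passed as higher in TRH in 10 of 23 alternative settings. The gene beat-IIIa had 0 reads in all libraries. All of its exon bases are shared with CG34106 on the same strand, also at 0 reads, so a lack of transcript and a loss of ambiguous reads cannot be told apart.

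**Figure D5:**
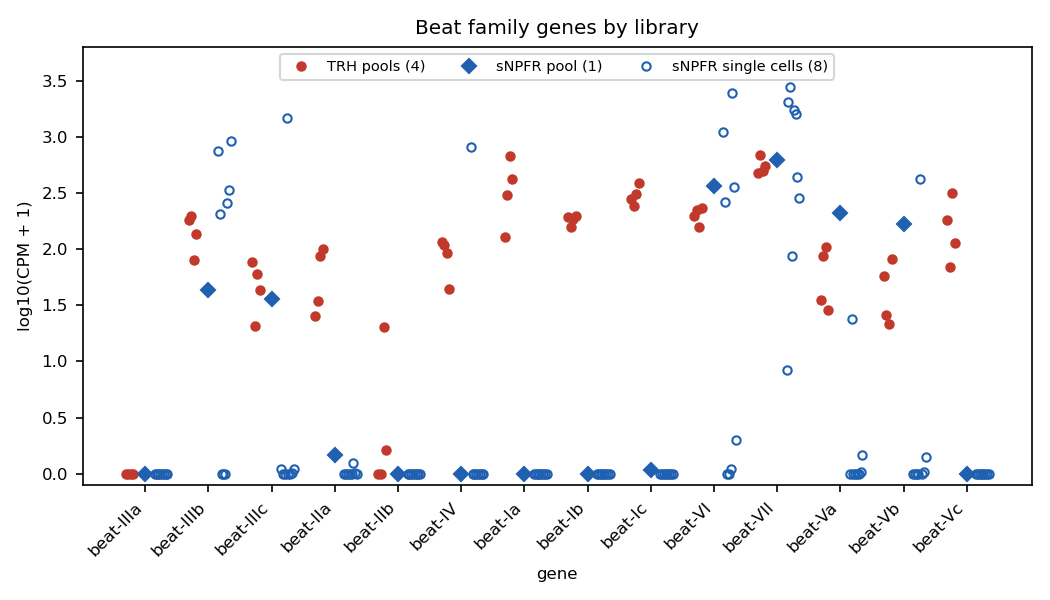
Level of the 14 Beat family genes as log10(CPM + 1) in the 4 TRH pools (red), the sNPFR pool (blue diamond) and the 8 single cells (open blue circles). For beat-Ia, beat-Ib, beat-Ic and beat-Vc every red point lies above 60 CPM and every blue one at or near 0, while beat-VII is present in all pools and in 7 of 8 cells.

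Across single cells the genes of the set ranged from present in all to present in none. Of the 52, 5 were present in all 8 cells, namely Fas1, Dscam2, Nlg3, Nrx-1 and Ptp99A. Among genes present in any cell, these were 5 of 36 in the set, against 156 of 4285 over genes of all kinds. A further 9 of the set were present in 5 to 7 cells, 11 in 2 to 4 cells, 11 in 1 cell and 16 in none. The 11 found in 1 cell were spread over 6 cells: fra, Ptp69D and beat-IV in cell 1, robo1 and beat-Va in cell 2, beat-IIIc in cell 4, Toll-7 and beat-Vb in cell 5, Fas3 and caps in cell 6 and CadN2 in cell 7. Among these 11, CadN2, Toll-7, beat-IIIc, beat-Va and beat-Vb were also present in pool 16. Fas3, caps, robo1, fra, Ptp69D and beat-IV were not. Whether they were missed in the other cells was not tested. Of the 36 genes present in any cell, 30.6% were in exactly 1, against 42.8% of the 4285 genes of all kinds present in any cell. Of the 16 in no cell, 9 were present in all 4 TRH pools and under 10 CPM in pool 16 as well. These 9 made up 20.5% of the 44 set members present in all 4 TRH pools, against 16.6% of the 3907 tested genes present in all 4.

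Further wiring genes outside the set gave calls at rates near those of all genes. Of 73 listed genes in the table, 58 were tested. Calls were made for 7 as higher in TRH and for 1 as higher in sNPFR. The median log2 fold change of the 58 was 0.04. The largest of these lists, 35 other surface proteins, held the one gene higher in sNPFR, tutl, for the immunoglobulin protein Turtle. It stood at 856 ± 174 CPM across the TRH pools, 5106 CPM in pool 16 and 698 to 8925 CPM in the cells (log2 fold change -2.98 ± 0.23, adjusted p = 0.00504). On the other side of that list, ed, for the adhesion protein Echinoid, stood at 157.7 ± 75.2 CPM, and stan, for the cadherin Flamingo, at 121.6 ± 42.0 CPM, with 0 and 2 reads in the sNPFR libraries (adjusted p = 0.016 and 0.0199).

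Of the ligands of plexins, 1 of 4 tested semaphorin genes passed. Sema2b stood at 305.6 ± 135.5 CPM across the TRH pools, with 1 read in pool 16 and 18.1 CPM in the highest cell (adjusted p = 0.0365). Sema1a, the transmembrane semaphorin, stood at 201.8 ± 30.1 CPM, 258.0 CPM in pool 16 and 638.3 CPM in the 8 cells added together (adjusted p = 0.074), and Sema2a did not pass either (0.291). Of 8 Side family genes, relatives of the Beat partner Sidestep, side-VIII and side-IV were higher in TRH (adjusted p = 0.0349 and 0.0364). The gene side-V leaned the other way and was not called (log2 fold change -1.92, adjusted p = 0.0804). Of 4 tested genes on the list of integrins and their partners, mew was higher in TRH (adjusted p = 0.0283). The genes scb and mys were not called (log2 fold change 9.52 and -0.73, adjusted p = 0.182 and 0.629). Of 16 tested guidance signalling genes 0 passed, the lowest p-values being those of fax, RhoGAP93B and unc-104 (adjusted p = 0.106, 0.125 and 0.13). Their log2 fold changes were 1.95, -1.76 and -0.70.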

How the data were processed

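The submitters' processing notes name STAR, edgeR and the BDGP6 build. How reads were counted, with which annotation and strand setting, is not stated in the sources used here, and SMART-Seq and Nextera XT libraries carry no strand mark. The deposited count table holds whole reads. The authors' deposited normalized signal values, 100% of which are whole reads times 1 constant per library (relative tolerance 0.001), list 6445 genes, 48 of the 52 among them, and entered 1 alternative only, as log2(value + 1). 1 column of sample values matching no sample was not used. CPM were computed from column totals.

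The main test used edgeR 4.0.16 in R 4.3.3 (TMM scaling, filterByExpr, quasi-likelihood test, Benjamini-Hochberg threshold 0.05). Its code was also run on simulated counts with the same dispersion for every gene, which checks the code and not the calls made here. The value after ± of a log2 fold change is its size divided by the square root of the F statistic, an approximate standard error. Alternatives used DESeq2 1.42.0, limma 3.58.1, other scalings and filters, cells thinned to 3380533 reads (seed 1), and left-out libraries. Coordinates and exon lengths are from Ensembl release 115 for BDGP6, in which 51 of the 52 genes were matched by identifier; 18w was not. Figures used matplotlib 3.10.9. No sequences are shown.

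The genes and lists were chosen with earlier results of these data known. Values are printed for each gene past the threshold and for the most abundant gene of each role group in the TRH pools and in the cells; other genes are given by ranges and counts, and other lists by the 3 lowest p-values each. Genes named in further detail were chosen after their values were seen. The wiring list names 74 genes, of which 73 are in the count table.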

Additional observations from a re-analysis of the deposited data

Results flagged for a closer look

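Among the TRH pools, Ten-a stood at 2061 CPM in pool 40, with the other 3 pools between 1296 and 1409 CPM. Such a gap arises by chance in about 1 in 20 groups, and 49 genes of the set were checked. The gene beat-IIb stood at 19.1 CPM in pool 60 and under 1 CPM in the others, but it reached the 10 CPM needed for this check through pool 60 alone, so its gap follows from that condition.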

How the results depend on the processing

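No paired analysis was possible because the groups share no replicate numbers in the labels. With 23 alternatives each, the 10 genes higher in TRH became 21 with the sNPFR pool alone, and ran from 1 to 13 in leave-one-out settings. The 5 higher in sNPFR became 8 with singleton pairing, 0 with limma-voom, 1 with limma on the deposited values and 9 with either the sNPFR pool or the summed cells alone, and ran from 0 to 6 in leave-one-out settings. Over all genes 1009 calls became 3039 with DESeq2, 2745 with the sNPFR pool alone and 2027 with the summed cells alone, and ran from 16 to 1226 in leave-one-out settings. None of the 15 called genes changed sign in any of the 23 settings. For genes whose groups do not overlap, that is nearly fixed by the values. The median log2 fold change of all genes, 0.67 with TMM, was 0.41 with singleton pairing, 1.05 with DESeq2 size factors and 1.28 with library totals, and calls higher in TRH made up 77.7%, 67.2%, 84.7% and 87.9% of all calls. Of the 48 tested genes, 12 changed sign in at least 1 setting, 0 of them past the threshold with the changed sign. Among those with values in every library, these were robo3 (-0.23 with summed cells alone, and -0.081 to 1.79 in leave-one-out settings, the lowest without cell 7 and the highest without cell 6), NetB (-0.037 with the sNPFR pool alone) and fra (-0.66 with summed cells alone, and -0.52 without cell 7 to 7.83 without cell 1, with -0.50 without pool 60). The last was PlexB, at 0.18 with DESeq2 size factors and with DESeq2, 0.46 with library totals, 0.73 with limma on deposited values, 2.77 with the sNPFR pool alone, and from -0.65 without cell 7 to 0.095 without cell 5, with 0.021 without pool 45 and 0.015 without cell 2. With their first sign, robo3 passed with the sNPFR pool alone (adjusted p = 0.0264) and NetB with summed cells alone (0.00498). The cause of these changes was not tested. Counts of genes present in cells or in TRH pools and of other wiring genes called moved by less than 1.5 times. A sum over 8 cells gives no spread between cells, and with 2 sNPFR units small differences could not be detected.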

Other observations

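Although fewer genes of the set reached 10 CPM in sNPFR libraries, the set's summed level was of like size everywhere, from 11323 to 14637 CPM across the TRH pools, 16056 CPM in pool 16 and 10792 to 19397 CPM in the cells. Cell 4, with 9 genes of the set present, held 13388 CPM, of which Ptp99A gave 4841, Fas1 3220 and Dscam2 2096 CPM. The genes of the set are long: their median span in the annotation was 37.8 kb, against 1.69 kb over all annotated genes of the count table.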
